A study of Mus musculus with 2 samples.

Results

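The genes that encode the T cell receptor were followed in 2 RNA-seq libraries of mouse myeloid-derived suppressor cells (MDSCs). They were taken as every gene row whose biotype is a T cell receptor V, D, J or C gene, and 270 of 55401 rows met this. By the start of the symbol, 191 rows belong to the alpha chain locus (Tra), 53 to the beta chain locus (Trb), 11 to the delta chain locus (Trd) and 15 to the gamma chain locus (Trg). By class there are 178 V rows, 4 D rows, 80 J rows and 8 C rows, and 34 of the V rows and 10 of the J rows are annotated as pseudogenes. One library came from Mettl3fl/fl mice, which carry floxed alleles of the m6A methyltransferase gene Mettl3, with no Cre named (the floxed control). The other came from LysM-cre, Mettl3fl/fl mice, which carry the same alleles with LysM-cre, in which the lysozyme gene Lyz2 drives Cre recombinase in myeloid cells. Both are on C57BL/6 and were 8 weeks old. The cells were isolated by magnetic sorting from mice that bore tumours of MC38, a colon adenocarcinoma line, and were then held with MC38 cells for 24 h, and the tumour is written MC39 in a field of the Cre sample. With 1 library per genotype there is no replicate check on any difference below, and no p-value is given. Pairs of values stand in the order floxed control, then the library labelled LysM-cre, and ratios are the second over the first.

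An alpha beta T cell joins 1 V and 1 J segment to make its alpha chain, and a V, a D and a J segment to make its beta chain, and splices the joined exon to a constant gene. Gamma delta T cells use the gamma and delta chain genes in the same way. In all of them the V segment carries most of the antigen-binding surface, the D and J segments complete its most variable loop, and the constant gene gives the stalk and membrane anchor that pairs with the CD3 proteins. Myeloid cells do not rearrange these loci, and MDSCs are known for restraining T cells in tumours.

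Both libraries held transcripts of these genes at a low and nearly equal total. The 270 rows together took 24512 counts, a share of 412 CPM (counts scaled to a total of 1e6 per library), and 24393 counts, or 411 CPM. The CPM ratio was 0.997, with an exact 95% interval of 0.979 to 1.01. Such intervals here cover counting error only. The libraries held 59506878 and 59393864 counts in all. MDSC genes were abundant in both, with Csf1r at 456 and 481 FPKM (fragments scaled by transcript length and by depth) and Csf3r at 492 and 441 FPKM, and the targeted gene Mettl3 stood at 4.16 and 3.92 FPKM, with a ratio of 0.945 (0.876 to 1.02), so the whole-gene level does not check the genotype label. In such bulk samples fewer T cells and less receptor RNA per T cell cannot be told apart. No sort or cell count from the labels says how many T cells the isolated cells held.

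All 270 rows were found in GENCODE M21 on the mm10 assembly with the same start and end. The Tra rows lie on chromosome 14 between 52427928 and 54224206, with the Trd rows inside that span between 53881612 and 54149294. The Trb rows lie on chromosome 6 between 40891229 and 41558452, and the Trg rows on chromosome 13 between 19178024 and 19352756. Mettl3 itself ends 123 kb before the first Tra row, on the same chromosome.

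The constant genes are shown first because they hold most of the T cell receptor counts. The first 100 bases of the 4 gamma constant rows follow in GENCODE M21's sequence. Trgc1 lies at chr13:19214103-19217024 (plus strand), Trgc2 at chr13:19304649-19307551 (minus strand), Trgc3 at chr13:19260884-19263528 (plus strand) and Trgc4 at chr13:19344558-19352756 (plus strand). Capitals mark bases that differ from Trgc1 at the same place, and in Trgc1 every base that differs in any of the others.
Trgc1: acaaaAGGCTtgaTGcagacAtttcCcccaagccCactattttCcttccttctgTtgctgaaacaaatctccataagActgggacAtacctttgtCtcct
Trgc2: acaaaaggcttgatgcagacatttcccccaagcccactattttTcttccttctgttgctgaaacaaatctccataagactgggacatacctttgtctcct
Trgc3: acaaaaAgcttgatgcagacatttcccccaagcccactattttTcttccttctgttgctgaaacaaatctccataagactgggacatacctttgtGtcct
Trgc4: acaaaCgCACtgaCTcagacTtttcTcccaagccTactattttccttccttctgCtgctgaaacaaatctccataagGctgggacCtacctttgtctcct
In this stretch Trgc2 differed from Trgc1 at 1 base, Trgc3 at 3 and Trgc4 at 12. Over the whole transcripts Trgc1 and Trgc2 were identical at 94.1% of aligned positions, and Trgc1 and Trgc4 at 67.0%. No pair of Trgc1 with another gamma constant row shares an exact stretch of 150 bases, the length of 1 read. The longest such stretches were 104 bases with Trgc2, 122 with Trgc3 and 29 with Trgc4. The beta constant rows Trbc1 (chr6:41538218-41539881, plus strand) and Trbc2 (chr6:41546730-41548352, plus strand) were identical over their first 259 bases. Reads in that stretch cannot be told apart between them.

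Alpha and beta constant genes differed little between the libraries. Trac (ENSMUSG00000076928, chr14:54220521-54224206, plus strand), the only alpha constant gene, stood at 91.0 and 95.8 FPKM, on 5688 and 5970 counts (CPM ratio 1.05, 95% interval 1.01 to 1.09). Trbc1, the first of the beta constant genes, stood at 76.0 and 76.3 FPKM on 3806 and 3810 counts (1.00, 0.959 to 1.05). Trbc2, the second, stood at 140 and 150 FPKM on 6479 and 6912 counts (1.07, 1.03 to 1.11). The ratio of alpha to beta constant counts was the same within counting error, at 55.3 and 55.7 alpha counts per 100 beta counts (odds ratio 1.01, 95% interval 0.962 to 1.05). For every 100 Trbc2 counts there were 58.7 and 55.1 Trbc1 counts (odds ratio 0.938, 95% interval 0.887 to 0.993).

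Gamma and delta constant genes were lower in the library labelled LysM-cre. Trgc4 had the most gamma counts and stood at 6.27 and 3.15 FPKM, on 413 and 207 counts (CPM ratio 0.502, 95% interval 0.423 to 0.595). Trgc1 stood at 3.38 and 1.86 FPKM on 209 and 115 counts (0.551, 0.435 to 0.695). Trgc2 differed less, at 4.13 and 3.33 FPKM on 253 and 204 counts (0.808, 0.668 to 0.975). Trdc (ENSMUSG00000104876, chr14:54142851-54148868, plus strand), the delta constant gene, stood at 3.65 and 2.86 FPKM on 944 and 736 counts (0.781, 0.708 to 0.861). All 4 rows thus lay lower in the library labelled LysM-cre, with intervals below 1. Trgc3, which had 0 and 8 counts, was the only gamma or delta constant row higher there, and a count of 0 allows up to 3.

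An interval beyond 1 is common in these libraries. Among all 20557 rows with 10 or more counts over both, 27.6% had an interval wholly above 1 and 27.3% wholly below. The shares among the 129 T cell receptor rows with as many counts were 16.3% and 23.3%. Intervals narrow as counts rise. They lay beyond 1 either way in 54.8% of the 20557 rows and in 46.4% of rows with 10 to 665 counts. A difference of 1.5-fold was less common among rows with 200 or more counts. Of all 13132 rows with 200 or more counts, 4.30% were at least 1.5-fold lower in the library labelled LysM-cre and 4.80% at least 1.5-fold higher. Of the 22 T cell receptor rows with 200 or more counts, 2 (9.09%) were lower by that much, which are Trgc1 and Trgc4, and 0 were higher. The 13132 rows include far more abundant ones than Trgc1 and Trgc4, so these shares are not matched for counts. Among all rows with 10 to 665 counts, 17% were at least 2-fold lower.

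Summed over whole loci, the chains of gamma delta T cells parted from those of alpha beta T cells. The Tra rows together had 8282 and 8555 counts (CPM ratio 1.03, 95% interval 1.00 to 1.07) and the Trb rows 13981 and 14297 counts (1.02, 1.00 to 1.05). Each of these sums turned on 1 constant gene: without the row with the most counts the ratio was 0.998 for Tra and 0.986 for Trb. The Trd rows together had 1099 and 813 counts (0.741, 0.676 to 0.812) and the Trg rows 1150 and 728 counts (0.634, 0.577 to 0.697). Set against each other, there were 10.1 gamma and delta counts per 100 alpha and beta counts and 6.74, respectively (odds ratio 0.668, 95% interval 0.624 to 0.714). With constant genes alone these were 11.4 and 7.61 per 100 (0.668, 0.619 to 0.721). Leaving Trgc4 out, the other gamma and delta rows still stood at 1836 and 1334 counts (CPM ratio 0.728).

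**Figure D1:**
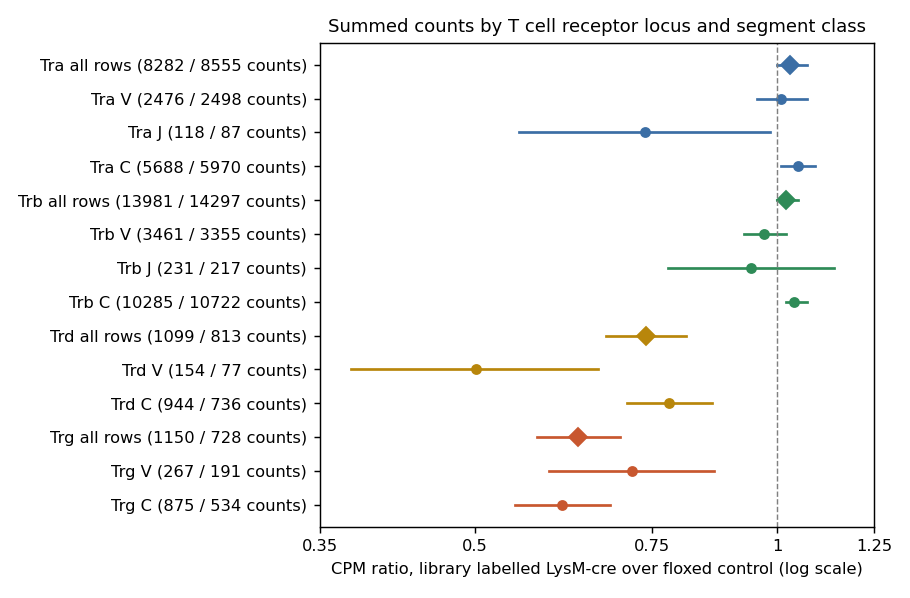
CPM ratio, library labelled LysM-cre over floxed control (horizontal, log scale), for the summed rows of each locus (diamonds) and of each segment class in it (circles), with exact 95% intervals of counting error as lines. The Tra and Trb sums lie at 1.03 and 1.02, and the Trd and Trg sums at 0.741 and 0.634.

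The gamma chain locus is built of clusters, each with its own V, J and C segments, and V segments are mostly joined within a cluster. Each gamma row was placed with the nearest constant row on its strand. The cluster of Trgc4 held 516 and 280 counts (CPM ratio 0.544, 95% interval 0.468 to 0.630). The cluster of Trgc1 held 258 and 173 (0.672, 0.551 to 0.818), and that of Trgc2 held 376 and 267 (0.711, 0.606 to 0.835). All 3 lay lower in the library labelled LysM-cre, with overlapping intervals. The cluster of Trgc3 held only the 0 and 8 counts of Trgc3 itself.

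Of the 7 gamma V rows, 4 had 10 or more counts over both libraries. Of these 4, Trgv1 and Trgv2 were lower with intervals below 1, where 27.3% of all rows with as many counts had such an interval. Trgv2, in the cluster of Trgc2, had 120 and 63 counts (3.64 and 1.91 FPKM; CPM ratio 0.526, 95% interval 0.381 to 0.719). Trgv1, in the cluster of Trgc4, had 101 and 72 counts (0.714, 0.520 to 0.976). Trgv5, in the cluster of Trgc1, had 11 and 4 counts (0.364, 0.0846 to 1.23). Trgv4, in the same cluster, had 35 and 52 counts (1.49, 0.951 to 2.35). Both of these intervals include 1. As a share of all Trgv counts, Trgv4 took 13.1% (95% interval 9.3 to 17.8) and 27.2% (21 to 34.1). Trgv2 took 44.9% and 33%, Trgv1 37.8% and 37.7% and Trgv5 4.12% and 2.09%, with intervals that overlap between the libraries. The other 3 (Trgv3, Trgv6 and Trgv7) had 0 counts in both libraries. The gamma J rows had 8 and 3 counts in all.

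Delta V segments were also lower in the library labelled LysM-cre. Together they had 154 and 77 counts (CPM ratio 0.501, 95% interval 0.376 to 0.663). Trdv2-2 had 98 and 38 counts (3.66 and 1.41 FPKM; 0.388, 0.260 to 0.570) and Trdv1 had 48 and 31 (2.11 and 1.38 FPKM; 0.647, 0.398 to 1.04). Trdv2-1, which shares a stretch of 221 identical bases with Trdv2-2, had 8 and 0 counts, so reads could fall to either row, and their sum was 106 and 38 (0.359). Trdv5 overlaps the end of Trdc on the opposite strand and had 0 and 8 counts, and the sources used here do not say how counting treated strand. For every 100 Trdc counts there were 16.3 and 10.5 delta V counts (odds ratio 0.641, 95% interval 0.473 to 0.864). For the gamma chain the same figures were 30.5 and 35.8 V counts per 100 C counts (1.17, 0.940 to 1.46). Neither delta D row had a count, and the delta J rows had 1 and 0. In addition, 10 alpha V rows carry a delta name as well because either chain can use them, and these held 294 and 221 counts (CPM ratio 0.753, 95% interval 0.630 to 0.900). A large part of that gap lay in 1 row, Trav21-dv12, at 36 and 4 counts. Trav14d-3-dv8, with the most counts of the 10, had 95 and 87 (0.918, 0.678 to 1.24). The sum without Trav21-dv12 was not examined. All 10 rows are counted with Tra throughout.

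Genes of gamma delta T cells outside the receptor loci did not share one direction. Of 9 listed, 6 had 10 or more counts over both libraries, and the summed FPKM was 31.8 and 30.1. Of the 6, 3 were higher (0 with an interval above 1) and 3 lower (2 with one below 1). Among all rows with as many counts, 27.6% had an interval above 1 and 27.3% below. Sox13, a transcription factor of these cells, stood at 1.16 and 0.800 FPKM on 335 and 232 counts (CPM ratio 0.694, 95% interval 0.584 to 0.823). The kinase gene Blk, which B cells also express, stood at 10.9 and 9.09 FPKM (0.833, 0.780 to 0.890). The scavenger receptor genes Cd163l1 (2.09 and 2.11 FPKM) and 5830411N06Rik (1.48 and 1.61 FPKM) lay close to level. Maf, which macrophages also express, stood at 16.1 and 16.4 FPKM. Il17a, Il17f and Il23r, known from one subset of gamma delta T cells, had 0 counts in both libraries. Natural killer cells can also transcribe unrearranged gamma and delta genes. Of 10 cytotoxic and NK cell genes, 7 were higher (4 with an interval above 1) and 3 lower (2 with one below 1), with a summed FPKM of 247 and 250. Among them Ncr1, which defines NK cells, was lower at 102 and 57 counts (0.560, 0.398 to 0.782), and Klrb1c stood at 206 and 192 counts (0.934, 0.763 to 1.14). The part of either cell type in the gamma and delta values was not tested.

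Beta V segments kept nearly the same order in the libraries. Of 35 Trbv rows, 24 and 22 had counts, and 21 had 10 or more over both. Trbv13-2 had 311 and 354 counts (13.7 and 15.6 FPKM; 8.99% and 10.6% of all Trbv counts). Trbv16 had 325 and 312 counts (12.2 and 11.8 FPKM), Trbv13-1 had 296 and 302 (12.1 and 12.3 FPKM) and Trbv12-2 had 269 and 271 (10.4 and 10.6 FPKM). Trbv3, first in the control with 332 counts, stood behind 4 others in the library labelled LysM-cre, at 248 (10.9 and 8.17 FPKM; CPM ratio 0.748, 95% interval 0.632 to 0.885). Together, the 6 rows with most counts took 50.8% and 51.2% of Trbv counts. Per 100 beta constant counts there were 33.7 and 31.3 Trbv counts (odds ratio 0.930, 95% interval 0.880 to 0.982). The effective number of rows, which is the number of equally used rows that would give the same evenness (the exponential of Shannon's entropy), was 17.7 and 17.3. Across the 21 rows the counts of the libraries had a Pearson r of 0.90 on the log2(count + 1) scale and a Spearman rho of 0.92, as a description only, since all rows share the same pair of libraries.

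Only a pair of Trbv rows differed by 2-fold in CPM, 1 in each direction and both among the lowest. Trbv30 had 10 and 25 counts (CPM ratio 2.50, 95% interval 1.16 to 5.84). Trbv23 had 18 and 4 (0.223, 0.0548 to 0.676). These are 4.76% of the 21 rows each way. Among all rows with 10 to 665 counts, the range up to the highest V row, 18.4% were 2-fold higher and 17% 2-fold lower. The Trbv rows had a median of 256 counts. The interval lay beyond 1 in 3 rows that were higher and 7 that were lower, 47.6% of the 21 against 46.4% of all rows in that range of counts. The higher ones were Trbv2 (90 and 133 counts), Trbv15 (149 and 215 counts) and Trbv30. Among the lower ones, Trbv26 had 84 and 42 counts (0.501, 0.337 to 0.734), just short of 2-fold, and Trbv1 had 192 and 142 (0.741, 0.592 to 0.925). No Trbv row shares a stretch of 150 bases with another T cell receptor row.

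**Figure D2:**
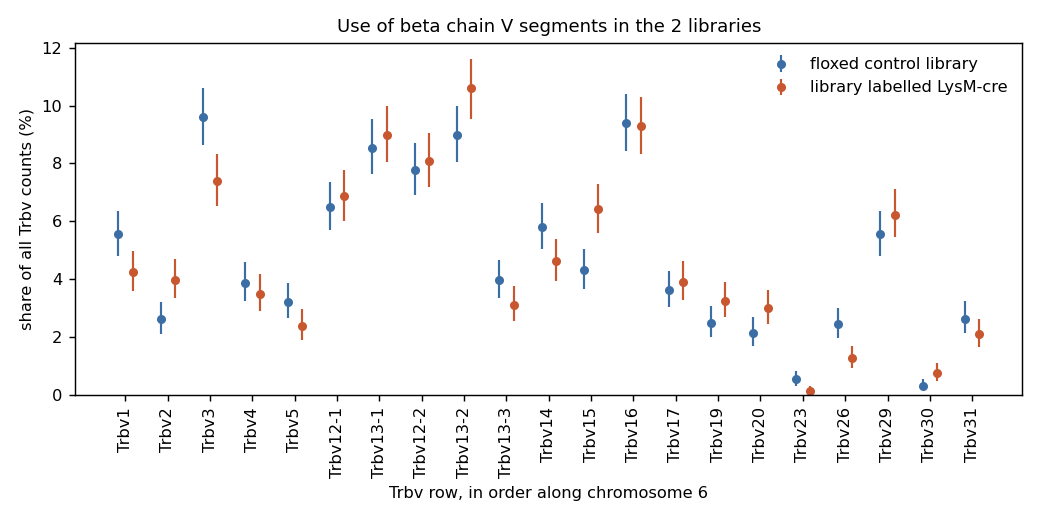
Share of all Trbv counts (vertical, percent) of the 21 Trbv rows with 10 or more counts, in their order along chromosome 6, with exact 95% binomial intervals as lines, for the floxed control library (blue) and the library labelled LysM-cre (orange). The highest share in each library is 9.59% for Trbv3 and 10.6% for Trbv13-2.

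Beta D and J segments are short and held few counts. The D segments are printed to show their length, Trbd1 at chr6:41533201-41533212 and Trbd2 at chr6:41542163-41542176, both on the plus strand, with 3 of the J segments beside them. Trbj1-4 lies at chr6:41534811-41534861, Trbj2-1 at chr6:41542754-41542803 and Trbj2-7 at chr6:41543810-41543856, all on the plus strand. Capitals mark the motif TTTGGNNNNGG or TTCGGNNNNGG on the coding strand, which encodes the phenylalanine-glycine bend of a J segment.
Trbd1: gggacagggggc
Trbd2: gggactgggggggc
Trbj1-4: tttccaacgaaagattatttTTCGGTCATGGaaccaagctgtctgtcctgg
Trbj2-1: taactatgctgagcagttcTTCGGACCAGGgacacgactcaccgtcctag
Trbj2-7: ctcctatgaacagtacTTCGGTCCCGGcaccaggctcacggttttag
The motif was present in 55 of 70 J rows that are not pseudogenes and in 1 of 10 J pseudogenes, and in 0 of 178 V rows over their last 50 bases. None of the 4 gamma J rows has these letters. All 14 Trbj rows had counts in both libraries, 231 and 217 (CPM ratio 0.941, 95% interval 0.778 to 1.14). Trbj1-4 had 21 and 26 counts, Trbj1-3 had 26 and 18, Trbj1-6 had 23 and 19, Trbj1-5 had 17 and 19 and Trbj2-7 had 20 and 19. Trbj2-6, annotated as a pseudogene and without the motif, had 24 and 13 counts (0.543, 0.254 to 1.11). Trbj2-1 was the only Trbj row past 2-fold, at 3 and 9 counts (3.01, with an interval that includes 1). None of the 14 intervals excluded 1. The first J cluster (Trbj1) held 126 and 112 counts and the second (Trbj2) 105 in each library. Trbd1 had 2 counts in each library and Trbd2 had 2 and 1.

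In such short rows a few reads give a high FPKM. One count was worth a median of 0.0385 FPKM in a V row of the control library and 0.223 FPKM in a J row. Of the 82 T cell receptor rows averaging at least 1 FPKM, 3 were at least 2-fold higher in FPKM + 1 in the library labelled LysM-cre (3.66%, against 1.31% of all 12526 rows past this minimum) and 1 was at least 2-fold lower (1.22%, against 1.18%). One of the 3 was Trbj2-1, at 0.798 and 2.69 FPKM, and the lower one was the alpha J row Traj6, at 3.16 and 0.881 FPKM on 14 and 4 counts. The others were the alpha V rows Trav10d and Trav13d-2, described below. Each of these called rows stood below 1 FPKM in the library where it was lower. Each thus passed the minimum only through the other library, and such a minimum favours rows that differ.

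Alpha J segments held few counts each. Of 60 Traj rows, 33 and 29 had counts, with 118 and 87 counts in all (CPM ratio 0.739, 95% interval 0.553 to 0.983). The 30 rows nearer to Trac held 94 and 76 of these and the 30 farther rows 24 and 11. Only 5 rows had 10 or more counts over both libraries. Among these Traj6 had 14 and 4 counts (0.286, 0.0686 to 0.911), Traj7 had 6 and 9, Traj4 had 10 and 4, and Traj15 had 6 in each library.

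Alpha V segments in all differed by less than the counting error. The 130 Trav rows had 2476 and 2498 counts (CPM ratio 1.01, 95% interval 0.956 to 1.07), and 82 and 83 rows had counts. Trav3-3 had the most, with 191 and 141 counts (6.77 and 5.00 FPKM; 0.740, 0.591 to 0.924). Trav14d-3-dv8 followed with 95 and 87 counts, Trav14d-2 with 98 and 73, Trav16n with 61 and 108 (1.77, 1.28 to 2.47), Trav6n-6 with 92 and 71 and Trav12-3 with 91 and 71. The effective number of rows was 56.9 and 56.5. The 6 rows with most counts in a library took 26.3% and 24.5%. Per 100 Trac counts there were 43.5 and 41.8 Trav counts (odds ratio 0.961, 95% interval 0.899 to 1.03).

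Single Trav rows differed between the libraries about as often as all rows with 10 to 665 counts. That range ends at the highest V row of any locus, while the highest Trav row had 332 counts, so counts were not closely matched. Of 76 Trav rows with 10 or more counts, 17 were at least 2-fold higher in CPM in the library labelled LysM-cre (22.4%) and 15 at least 2-fold lower (19.7%). These shares are near the 18.4% and 17% of all rows with 10 to 665 counts. The interval lay beyond 1 in 31 of the 76 (40.8%), against 46.4% of all rows in that range. Over these 76 rows the Pearson r of the libraries was 0.42 on the log2(count + 1) scale and the Spearman rho 0.59, as a description. Their median was 41 counts over both libraries, below that of the Trbv rows, and no difference between Trav and Trbv rows was tested.

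The rows that differed most include groups of near-identical copies. In C57BL/6 mice a block of the alpha locus is present in several copies, and the letters d and n in a symbol mark copied rows. The last 100 bases of rows from 3 families are printed because each family holds a row whose interval lies beyond 2-fold. In each family, capitals mark bases that differ from the first row printed, and in the first row those that differ in any of the others. Coordinates are those of the whole row, and all lie on the plus strand. The Trav10 rows lie at chr14:52810934-52811496 (Trav10d), chr14:53122114-53122610 (Trav10n) and chr14:53505727-53506286 (Trav10).
Trav10d: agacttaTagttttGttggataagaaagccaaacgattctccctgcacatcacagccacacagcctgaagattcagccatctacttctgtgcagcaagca
Trav10n: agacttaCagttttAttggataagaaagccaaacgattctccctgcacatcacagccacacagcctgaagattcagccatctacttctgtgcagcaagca
Trav10: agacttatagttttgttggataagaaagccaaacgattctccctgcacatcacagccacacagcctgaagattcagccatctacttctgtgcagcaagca
Trav10d had 22 and 115 counts (0.804 and 4.23 FPKM; CPM ratio 5.24, 95% interval 3.30 to 8.68). Trav10n had 7 and 10 counts and Trav10 had 10 and 23. Trav10d and Trav10 were identical at 99.3% of positions and ended in the same 100 bases. Summed, the 3 rows held 39 and 148 counts (3.80, 2.66 to 5.56), so the Trav10 family as a whole was higher in the library labelled LysM-cre.

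The Trav12 rows shown are Trav12-1 (chr14:53538191-53538738), Trav12n-1 (chr14:53155512-53156088) and Trav12d-1 (chr14:52844465-52845041).
Trav12-1: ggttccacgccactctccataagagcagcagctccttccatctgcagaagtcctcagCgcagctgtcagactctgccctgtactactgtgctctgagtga
Trav12n-1: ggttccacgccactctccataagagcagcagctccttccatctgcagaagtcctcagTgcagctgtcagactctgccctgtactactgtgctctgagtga
Trav12d-1: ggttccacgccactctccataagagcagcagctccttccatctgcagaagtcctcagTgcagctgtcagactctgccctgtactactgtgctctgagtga
Trav12-1 had 0 and 24 counts, 8.02-fold higher with the 0 set to 3 counts, and its exact 95% interval began at 6.03. Trav12n-1 went the other way, with 31 and 6 counts (1.06 and 0.194 FPKM; CPM ratio 0.194, 95% interval 0.0661 to 0.472), and Trav12d-1 had 9 and 2. Trav12n-1 and Trav12d-1 have the same sequence over all 436 bases, so their reads can be counted for either, and their sum was 40 and 8 counts (0.200). Trav12-1 was identical to each at 91.3% of aligned positions. Over the whole Trav12 family of 10 rows the counts were 262 and 214 (0.818, 0.680 to 0.984).

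The Trav13 rows shown are Trav13d-2 (chr14:52942764-52943289), Trav13n-2 (chr14:53253792-53254317) and Trav13-2 (chr14:53634829-53635399).
Trav13d-2: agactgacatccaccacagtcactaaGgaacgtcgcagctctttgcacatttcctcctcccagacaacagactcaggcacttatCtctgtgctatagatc
Trav13n-2: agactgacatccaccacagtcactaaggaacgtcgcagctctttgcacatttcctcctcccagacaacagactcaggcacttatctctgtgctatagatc
Trav13-2: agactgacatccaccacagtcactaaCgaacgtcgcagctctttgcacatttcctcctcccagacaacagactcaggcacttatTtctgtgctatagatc
Trav13d-2 had 19 and 87 counts (0.845 and 3.89 FPKM; CPM ratio 4.59, 95% interval 2.77 to 7.98). Trav13n-2, the same over all 331 bases, had 12 and 29 counts, and the pair held 31 and 116 (3.75). Trav13-2 had 0 and 22 counts, 7.35-fold higher with the 0 set to 3 counts, and its exact 95% interval began at 5.49. The Trav13 family of 13 rows held 128 and 233 counts (1.82, 1.46 to 2.28). In the opposite direction, Trav21-dv12, which shares no stretch of 150 bases with another T cell receptor row, had 36 and 4 counts (1.46 and 0.157 FPKM; 0.111, 0.0288 to 0.311).

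Fewer families than single rows lay past 2-fold. Of 130 Trav rows, 79 share a stretch of 150 bases with at least 1 other T cell receptor row, and 45 of the 76 rows with 10 or more counts do. Of these 45, 22 (48.9%) were past 2-fold in CPM, and of the 31 rows with no such partner 10 were (32.3%). The share of all rows with 10 to 665 counts past 2-fold either way was 35.5%, and the difference between the 2 sets of Trav rows was not tested. When rows that share a stretch were summed, 21 of 57 sums (36.8%) were past 2-fold, 12 higher and 9 lower. When rows were summed by family, 3 of 19 (15.8%) were, Trav10 and Trav17 higher (Trav17 at 10 and 27 counts) and Trav21 lower. Summing also raises the counts behind each value, and its part in this was not tested. Trav14, with the most counts, had 503 and 412 (CPM ratio 0.821, 95% interval 0.719 to 0.937). Short of 2-fold but with intervals below 1 were also Trav3 (294 and 214 counts, 0.729, 0.609 to 0.873) and Trav4 (65 and 40, 0.617, 0.405 to 0.928). The interval of Trav16 lay above 1 (149 and 216 counts, 1.45, 1.17 to 1.8). Families with intervals that include 1 were Trav6 (263 and 251), Trav15 (155 and 135), Trav5 (98 and 102) and Trav9 (116 and 122), among others.

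**Figure D3:**
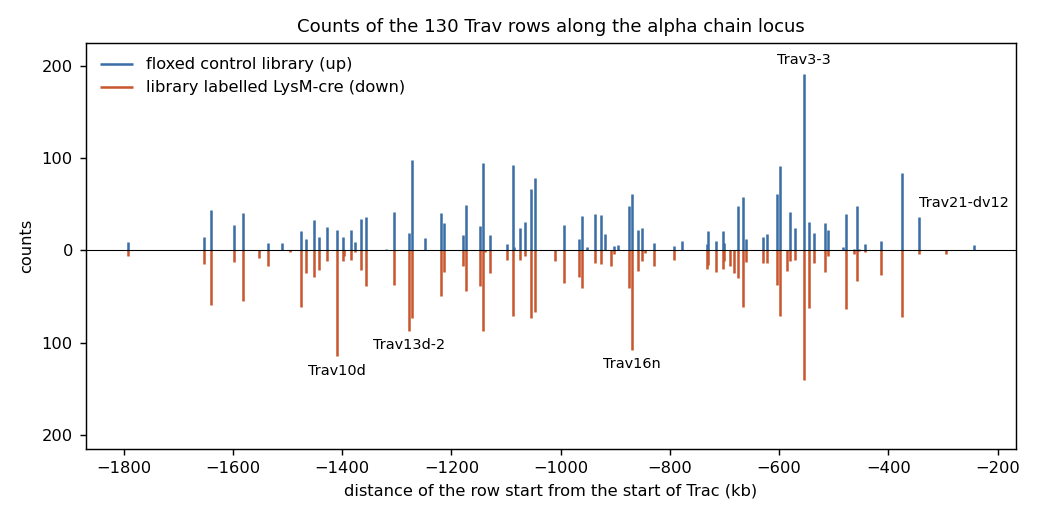
Counts of the 130 Trav rows (vertical, floxed control library upward in blue, library labelled LysM-cre downward in orange) against the distance of each row from the start of Trac (horizontal, kb). Trav3-3 is the tallest row in both libraries with 191 and 141 counts, and Trav10d and Trav13d-2 reach 115 and 87 in the library labelled LysM-cre against 22 and 19 in the control.

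Sums of Trav rows by position turned on a pair of rows. The 65 Trav rows farther from Trac held 1174 and 1293 counts (CPM ratio 1.10, with an interval above 1), and the 65 nearer rows 1302 and 1205 (0.927, 0.857 to 1.00). The rows marked d held 691 and 828 counts (an interval of 1.08 to 1.33), those marked n 662 and 615 (0.931, 0.833 to 1.04) and the rest 1123 and 1055 (0.941, 0.865 to 1.02). Trav10d and Trav13d-2 are in both the farther and the d rows. Without this pair the farther rows held 1133 and 1091 counts (0.965, 0.887 to 1.05) and the d rows 650 and 626 (0.965, 0.863 to 1.08), on the other side of 1 and with intervals that include it.

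**Figure D4:**
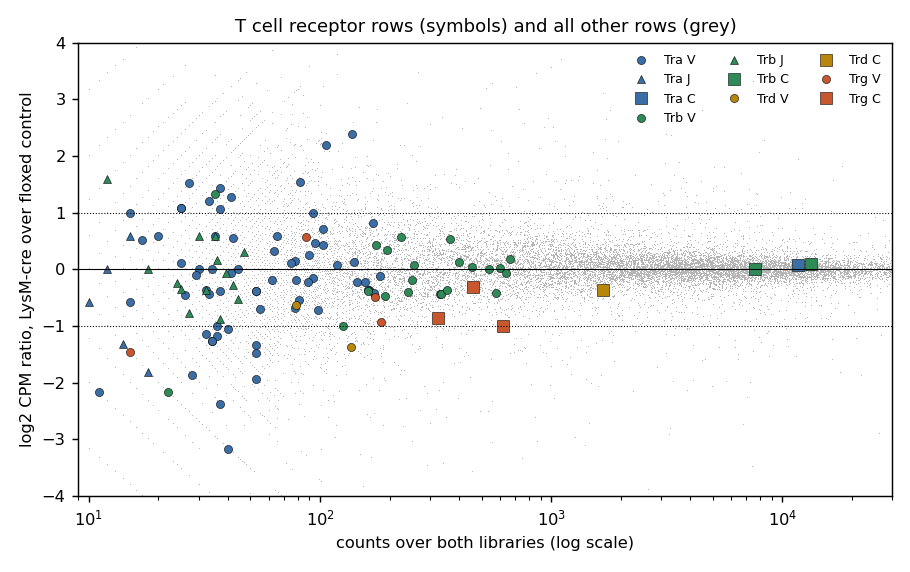
Log2 CPM ratio, library labelled LysM-cre over floxed control (vertical), against counts over both libraries (horizontal, log scale) for T cell receptor rows with 10 or more counts and at least 1 in each library (symbols, coloured by locus) and all other rows (grey). Dotted lines mark 2-fold. The alpha V circles spread on both sides at low counts, and the gamma and delta constant squares lie below 0 while Trac, Trbc1 and Trbc2 lie near it.

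Pseudogene rows gave little signal. Of the 34 V pseudogenes, 11 had counts, 26 and 14, and 0 had 10 or more over both. Of the 10 J pseudogenes, 6 had counts (38 and 22 in all), mostly Trbj2-6. Over all classes, 74 of the 270 rows had 0 counts in both libraries and 67 had from 1 to 9. The 129 rows with 10 or more counts included 19 (14.7%) at least 2-fold higher in CPM and 20 (15.5%) at least 2-fold lower, against 9.37% and 8.65% of all 20557 rows with as many counts. Those include far more abundant rows, and among all rows with 10 to 665 counts the shares were 18.4% and 17%.

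Genes of the proteins that carry the receptor to the surface and signal from it mostly lay near level. Of the CD3 and zeta chain genes, Cd3d had 3376 and 3324 counts (27.8 and 27.5 FPKM; CPM ratio 0.986, 95% interval 0.940 to 1.04) and Cd3e had 3958 and 3843 (14.5 and 14.1 FPKM; 0.973, 0.930 to 1.02). Cd3g (18.6 and 21.7 FPKM; 1.17, 1.12 to 1.22) and the zeta chain gene Cd247 (6.72 and 7.74 FPKM; 1.15, 1.09 to 1.22) were slightly higher in the library labelled LysM-cre. The coreceptor genes of cytotoxic T cells, Cd8a (45.0 and 44.4 FPKM) and Cd8b1 (105 and 112 FPKM), stood beside that of helper T cells, Cd4 (2696 and 2412 counts; CPM ratio 0.896, 95% interval 0.848 to 0.947). Some dendritic cells also express Cd8a and some myeloid cells Cd4. Of 10 coreceptor and costimulator genes 5 were higher and 5 were lower (4 and 2 with intervals beyond 1). Their median log2 CPM ratio was 0.00, which is also the median of all rows with 10 or more counts. Of those rows, 27.6% had an interval above 1 and 27.3% below.

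Intervals lay above 1 in 27.6% and below 1 in 27.3% of all rows with 10 or more counts, which are not matched for counts to these lists. Receptor-proximal signalling was covered by 14 genes, at a median log2 CPM ratio of 0.08. Of these, 11 were higher and 3 lower (8 and 1 with intervals beyond 1). The kinase genes Lck (48.6 and 48.9 FPKM) and Zap70 (11.4 and 12.9 FPKM) and the adaptor gene Lat (16.4 and 19.6 FPKM) are examples. Trat1, an adaptor that binds the receptor complex, was the only one past 2-fold, at 32 and 78 counts (CPM ratio 2.44, 95% interval 1.60 to 3.81), and a same-strand row overlaps it (9 and 14 counts in Gm8670). Of 11 T lineage transcription factor genes, 6 were higher and 5 lower (2 each with intervals beyond 1; median 0.00). Tcf7 stood at 69.3 and 73.3 FPKM, Bcl11b at 4.08 and 3.87 and Zbtb7b at 35.8 and 33.4. Foxp3, which defines regulatory T cells, was the exception, at 0.0622 and 0.387 FPKM on 20 and 119 counts (5.96, 3.69 to 10.1). The more abundant row Ccdc22 overlaps Foxp3 on the opposite strand, and Flicr overlaps it on the same strand. The recombinase genes were at the edge of detection, with Rag1 at 12 and 32 counts and Rag2 at 11 and 0. Ptcra, the surrogate alpha chain of thymocytes, had 0 and 4. The row B230118H07Rik (134 and 104 counts) overlaps Rag1 on the same strand and Rag2 on the opposite strand. Dntt, which adds bases at the joints, had 202 and 128 counts (0.635, 0.505 to 0.796).

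**Figure D5:**
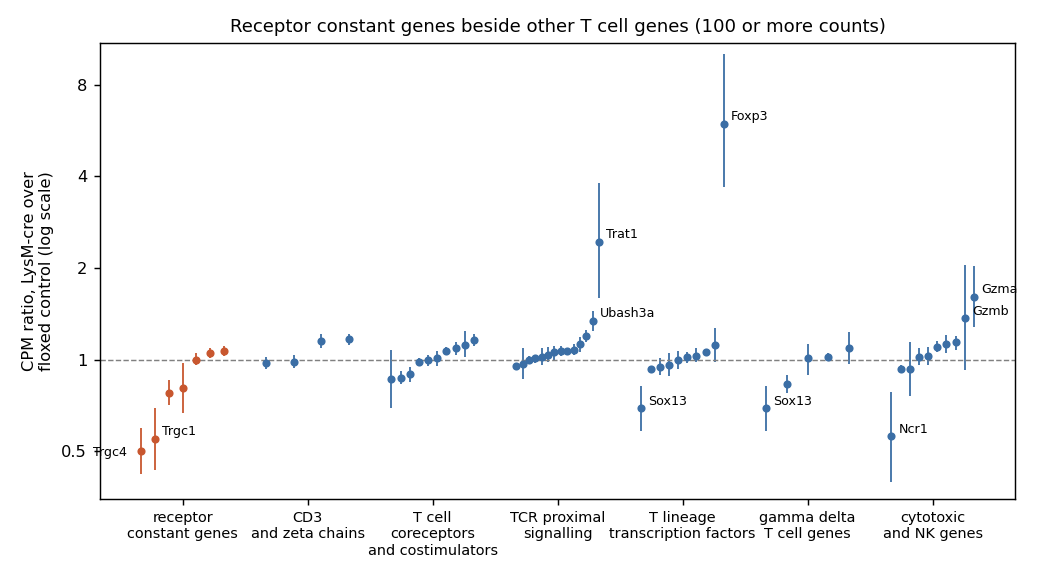
CPM ratio, library labelled LysM-cre over floxed control (vertical, log scale), of the receptor constant genes (orange) and of genes in 6 lists of T and NK cell genes (blue) with 100 or more counts over both libraries, with exact 95% intervals of counting error. Trgc4 and Trgc1 lie at 0.502 and 0.551 and Foxp3 at 5.96, while the CD3 and zeta chain genes lie between 0.973 and 1.17.

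Genes next to the loci lay on both sides of level. At the alpha and delta locus, Dad1, which begins 11.3 kb beyond Trac, had 2971 and 3479 counts (11.4 and 13.3 FPKM; CPM ratio 1.17, 95% interval 1.12 to 1.23) and Abhd4 had 3535 and 3471 (16.1 and 15.8 FPKM). At the gamma locus, Stard3nl, which encodes a late endosomal membrane protein, was higher in the library labelled LysM-cre, at 2.05 and 3.27 FPKM on 771 and 1227 counts (1.59, 1.46 to 1.75), where the Trg rows were lower. At the beta locus, Ephb6, an ephrin receptor gene, stood at 338 and 446 counts (1.32, 1.15 to 1.53). The trypsinogen genes that lie among the beta segments were at or near 0, with Prss1, Try4 and Try10 at 0 counts in both libraries, Prss2 at 10 and 14 and Try5 at 16 and 0. Of the 20 flanking genes, 12 had 10 or more counts, 6 higher and 6 lower (5 and 2 with intervals beyond 1). Among all rows with as many counts, 27.6% had an interval above 1 and 27.3% below.

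The antigen receptor genes of B cells, by comparison, were far more abundant. The 432 immunoglobulin rows held 2014138 and 1763878 counts, or 3.38% and 2.97% of all counts, where the T cell receptor rows held 0.0412% and 0.0411%. Within the range of 10 to 665 counts, 13 of 36 heavy chain V rows (Ighv) were 2-fold higher in CPM (36.1%) and 10 were 2-fold lower (27.8%). For kappa V rows (Igkv) these were 6 (20.7%) and 11 (37.9%) of 29. Among all rows in this range the shares were 18.4% and 17%. Intervals lay beyond 1 in 69.4% of the Ighv and 69% of the Igkv rows, in 40.8% of the Trav rows and in 46.4% of all rows in the range. The difference between these shares and those of Trav and Trbv rows was not tested. Of 10 B and plasma cell genes outside the immunoglobulin loci, 6 had an interval below 1 (background 27.3% of rows), among them Sdc1 (1555 and 1099 counts; CPM ratio 0.708, 95% interval 0.655 to 0.765). Jchain was higher, at 255 and 555 FPKM (2.18, 2.15 to 2.20), and the intervals of the other 3 reached 1. The background rows are not matched for counts to these genes, and intervals narrow as counts rise.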

How the data were processed

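RNA-seq was measured in 2 libraries, 1 per genotype, grouped by the genotype in the labels. Values come from one series-wide table. Its count columns hold whole-number counts per gene row deposited by the authors, not normalized, and its FPKM columns hold values scaled by the authors for depth and length, per the file headers. An FPKM of 0.0001 stood at a count of 0 and was read as 0. Strand-marked libraries of poly(A) RNA were read as pairs of 150 bases, per the labels' protocols. The submitters' processing notes name build mm10 and the tools HISAT2 2.0.4, cutadapt 1.9, DESeq2, edgeR and StringTie 1.3.4d, with no roles. The treatment of strand and multi-mapping reads is not stated there. Another 8 columns, from 4 libraries without labels, were left out.

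CPM is count over the library total. CPM ratios have exact 95% (Clopper-Pearson) intervals. Reads are not independent molecules after PCR, so these cover counting error only. Rows were counted at 2-fold in CPM with 10 or more counts over both libraries, with a count of 0 set to 3, or at 2-fold in FPKM + 1 with a mean of 1 FPKM or more, which understates differences of low rows. Sequences are the longest GENCODE M21 transcript of each row, and rows sharing an exact stretch of 150 bases were grouped. Alternatives were other scalings (TMM of edgeR 4.0.16, size factors of DESeq2 1.42.0, R 4.3.3), pseudocounts, minimums, folds and subsets of rows. Counting and intervals were also run on simulated counts that held counting error only. That run checks the code, and cannot show how far the intervals hold in real libraries. Computation used scipy 1.17.1, pandas 2.3.3 and numpy 2.4.6 under Python 3.11.15, with figures by matplotlib 3.10.9. Rows named are all constant genes, the 6 with most counts in each locus and class, up to 8 in each direction with 20 or more counts and an interval beyond 2-fold, and genes of the lists. Trbv23, Trbv26, Trbv30, Trbv1, Trbv2, Trbv15, Trbj2-1, Trav17, Trav10n, Trav10, Trav12d-1, Trav13n-2, Trav2, Trgv3, Trgv6 and Trgv7 were named after their values were seen. The members and lists were chosen with earlier results of these data known. Some genes of the lists are not reported here by name.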

Additional observations from a re-analysis of the deposited data

How the results depend on the processing

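Single named rows (90 comparisons), gene lists (20) and the sums of each locus stayed within their own intervals under TMM and median-ratio scaling. The TMM factors were 1.00058 and 0.999419 and the median-ratio factors both 1. These scalings could therefore move a ratio only slightly, and the outcome is little check on the results. Values next to 1 hold no direction there: the T lineage transcription factors summed to 0.999, and to 1.00 under TMM. TPM rescaling moved the median of all rows kept by -0.02 on the log2 scale. The sums of Tra and Trb (1.03 and 1.02) lay too near 1 to hold a direction: without its top row Tra stood at 0.998 and Trb at 0.986, and with V segments only Trb stood at 0.971. Trd moved to 0.501 with V segments only and 0.498 without its top row, and Trg to 0.717 and 0.708, all in the same direction as reported. The 3 rows higher and 1 lower at 2-fold in FPKM + 1 depended on the settings. At 1.5-fold they were 6 and 9, and with TPM 8 and 15, where 1 FPKM is worth 2.81 and 2.77 TPM and the pseudocount of 1 therefore weighs less. With a pseudocount of 5 they were 0 and 0, and with CPM under TMM or under median-ratio factors 1 and 0. The lower count was 3 with a pseudocount of 0.1, a minimum of 0.5 FPKM or no minimum. The 32 Trav rows past 2-fold in CPM became 21 when rows with a shared stretch were summed and 3 when families were, both chosen after seeing the data, with fewer units tested. Without Trav10d and Trav13d-2, also chosen after seeing the data, the farther Trav rows and the d rows both turned to 0.965. No replicate could be left out, and no paired analysis was possible because each genotype has 1 library with no replicate number. Depth limits single rows: Trav2, at 15 counts in each library, had an interval of 0.456 to 2.20.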
